A study of Mus musculus with 32 samples.

Results

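Ribosomal proteins and the translation machinery were read from 22 cDNA spots on a mouse array, in the prefrontal cortex of mice withdrawing from ethanol. The 22 spots were taken from 4696 clone spots by their titles: a title had to name a ribosomal protein, a translation initiation factor, an elongation factor or a tRNA synthetase, and titles with kinase, phosphatase, mitochond, transcription or Y-linked were dropped. No measured value entered that choice. The mice came from 2 lines bred for opposite severity of ethanol withdrawal, the seizure-prone WSP line and the seizure-resistant WSR line, each kept as 2 separately selected populations that descend from genetically mixed HS/Ibg mice. The 8 groups were Female WSP EtOH and Female WSP Air, Female WSR EtOH and Female WSR Air, Male WSP EtOH and Male WSP Air, and Male WSR EtOH and Male WSR Air. EtOH mice were drug-naive adults that received an ethanol injection (1.5 g/kg, with a higher dose in population 2 of WSP) and then 72 h of ethanol vapour, and tissue was taken at 8 h of withdrawal. Air mice sat in air chambers for the same time. Every mouse of both treatments also received pyrazole, an inhibitor of alcohol dehydrogenase, at 68.1 mg/kg, so the air groups are not untreated. Each of the 32 arrays was hybridised with 33P-labelled cDNA from a pool of 2 mice, which gave 4 arrays in a group, 2 from each population, and 64 mice in all. Arrays are named by population and pool, so that 2-1 is pool 1 of population 2, and values of a group are given in the order 1-1, 1-2, 2-1 and 2-2.

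Translation starts when initiation factors bring a ribosome to a messenger RNA. eIF4E binds the cap at the front of the message, and the 4E-binding proteins hold eIF4E back until they are phosphorylated. eIF2B reloads eIF2 with GTP so that the starter tRNA can be delivered again, and cells lower this step under stress. Aminoacyl-tRNA synthetases charge tRNAs with their amino acids, and ribosomal proteins form the large and small subunits around the ribosomal RNA. In neurons part of this machinery sits in dendrites, where local protein synthesis is tied to synaptic plasticity.

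By title, 7 spots were ribosomal proteins, among them Rpl12, Rpl19, Rpl27a, Rpl30 and Rpl36 of the large subunit and Rps3 of the small subunit. A further 5 were expressed sequence tags (ESTs, partial cDNA reads) with a stated similarity to a cytosolic ribosomal protein: L15, L34, S25 and, on 2 different clones, L39. Another EST resembled a worm protein with weak similarity to a bacterial S21 protein. The initiation titles were Eif4e, the 4E-binding protein Eif4ebp2, and eIF2B on clones 560445 and 657065, which share 1 UniGene cluster and whose subunit the title does not state. The synthetases were the histidyl and glutamyl enzymes and ESTs similar to the isoleucyl and tyrosyl enzymes. The name of the group does not hold for 1 spot. The only title with elongation factor is an EST weakly similar to a worm protein likened to an RNA polymerase II elongation factor, which acts on transcription, and 0 spots are titled as an elongation factor of translation. That EST is kept among the 22 because the title rule finds it.

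Vertebrate messages for ribosomal proteins are known for a run of pyrimidines (C and T) at their first bases, through which their translation is controlled as a class. The bases around the annotated transcription starts are printed for the members found in the set of RefSeq promoters used here (build GRCm38.p6). They show which of these members carry such a run at the annotated start. Each line holds 15 bases before and 15 bases from the start, on the transcribed strand, with the longest unbroken run of C and T in capitals.
Rpl27a: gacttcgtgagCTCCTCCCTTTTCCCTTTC
Rpl19, downstream start: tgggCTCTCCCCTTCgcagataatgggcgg
Rpl19, upstream start: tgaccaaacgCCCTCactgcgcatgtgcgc
Rpl12: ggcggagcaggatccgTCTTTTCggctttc
Rps3: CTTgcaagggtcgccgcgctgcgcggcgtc
Eif4e, downstream start: tcgCCCCCCCTTCaggagcggttgtgcgat
Eif4e, upstream start: tgCTaaaacagcagcggaggcggagggagc
Eif4ebp2: ggtaTCgcagcgggacgaccgggcgagagc
Rpl27a lies at chr7:109519180-109519209 (plus strand), and its run of 19 bases crosses the start. A run at least that long was found in 0.244% of the 32851 promoter windows of the same size in the table. The run was 11 bases at the downstream Rpl19 start (chr11:98026909-98026938, plus strand, 3.71% of windows as long) and 5 bases at the upstream one (chr11:98026695-98026724, plus strand, 47.3%). Both ended just before the start, outside the message as annotated. It was 7 bases in Rpl12, just inside the start (chr2:32961697-32961726, plus strand, 18.6%), and only 3 bases in Rps3 (chr7:99483695-99483724, minus strand, 88.5%). The downstream Eif4e start (chr3:138527253-138527282, plus strand) had a run of 10 bases that ended before the start (5.34%), while the upstream one (chr3:138526176-138526205, plus strand) and Eif4ebp2 (chr10:61452655-61452684, minus strand) had runs of 2 bases (98.7%), before the start as in Rps3. These letters describe the windows at the annotated starts alone, and the starts used in this tissue were not measured. An entry in that promoter set was found for 6 symbols, and Rpl30, Rpl36 and the histidyl enzyme, which it lacks, are named only.

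Most of the 22 spots were dim. A spot counts as above background here when its signal exceeded the single background value of its array. By that measure 5 of the 22 spots were above background on all 32 arrays (22.7%, against 26.3% of all clone spots), and 14 were above on at least 16 arrays (63.6%, against 65.1%). The 5 were both eIF2B clones, the histidyl tRNA synthetase, the S25-like EST and the L15-like EST. None of the 7 titled ribosomal proteins reached that. Among them Rpl12 was above background on 20 arrays, Rpl19 on 19, Rps3 on 18, Rpl36 on 16, Rpl30 on 14, and Rpl27a on 13. The least detected were Eif4ebp2 with 5 arrays, the L39-like ESTs with 7 arrays for clone 620239 and 9 for clone 597632, and the RNA polymerase II elongation factor-like EST with 11.

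**Figure D1:**
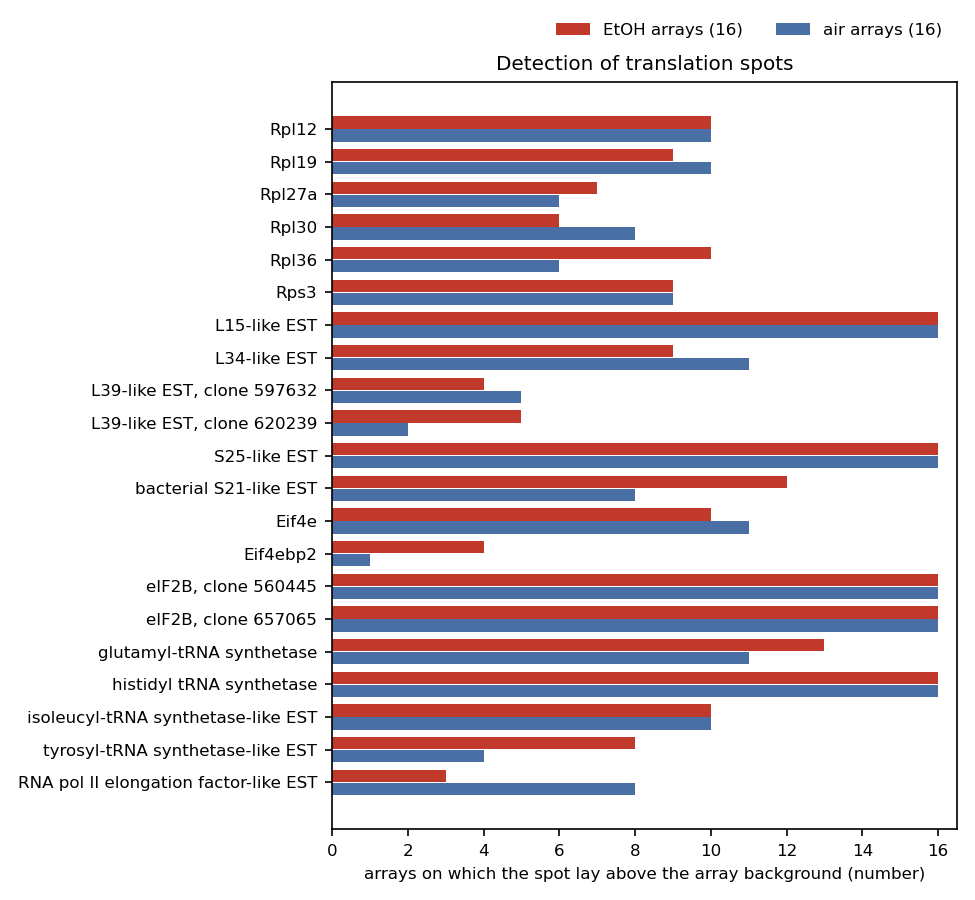
Number of EtOH arrays (upper bar, of 16) and air arrays (lower bar, of 16) on which each of 21 of the spots exceeded its array's background. The titled ribosomal proteins drawn all stay below the full 16 in both treatments, while both eIF2B clones, the histidyl tRNA synthetase and the S25-like and L15-like ESTs reach it in both.

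All intensities below are log2 values after background correction and quantile normalization, on which the offset of 50 sets a floor of 5.64. A value near the floor is compressed, so that differences of dim spots are understated. Averages over the 32 arrays, each read within its own spot, were 10.37 for eIF2B clone 560445, 6.73 for eIF2B clone 657065, 6.45 for the S25-like EST, 6.41 for the histidyl tRNA synthetase, 6.22 for the L15-like EST, 6.03 for Rpl19, 6.03 for Rpl12 and 6.02 for Eif4e. The signal of eIF2B clone 560445 was a median of 66.0 times its array background, that of clone 657065 was 3.44 times, and that of Rpl12 was 1.08 times. The probes are cDNA spots of unknown length and no level is compared between them.

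Array backgrounds ran from 9.83 to 45.0 units and the share of clone spots above background from 51.1% to 88.7%. Both were lower in females than in males, with a median background of 14.2 units in females and 24.5 units in males. The median share of spots above background was 60.8% in females and 70.5% in males. The 4 neuronal marker spots (Thy1, Ina, Vamp2 and Syn1) were above background on 26 to 32 arrays. Of the 20 marker spots of 6 cell classes 0 passed an adjusted p of 0.05 between treatments or lines (limma, smallest adjusted p = 0.659 for EtOH and 0.773 for line). Of all clone spots 0% passed for EtOH and 0.639% for line, so this count cannot show that cell composition was alike. Before adjustment, the neuronal Thy1 (0.11 higher in EtOH) and the astrocyte marker Fgfr3 (0.24 higher) were under 0.05 for EtOH, as were 7.52% of all spots. In pooled tissue fewer cells of a type and less RNA per cell cannot be told apart.

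The first question of the design is whether ethanol exposure and withdrawal changed these genes. Averaged over sexes and lines, 11 of the 22 spots were higher and 11 lower on the 16 EtOH arrays than on the 16 air arrays, with a median difference of -0.0032 against 0.0027 over all clone spots. No member passed an adjusted p of 0.05 in limma (smallest adjusted p = 0.656), and 0 of 4696 spots did (0%). At an unadjusted p under 0.05 there was 1 member (4.55%, against 7.52% of all spots). The 22 differences ran from -0.15 to 0.11, and their 95% intervals reached 0.07 to 0.25 either side.

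**Figure D2:**
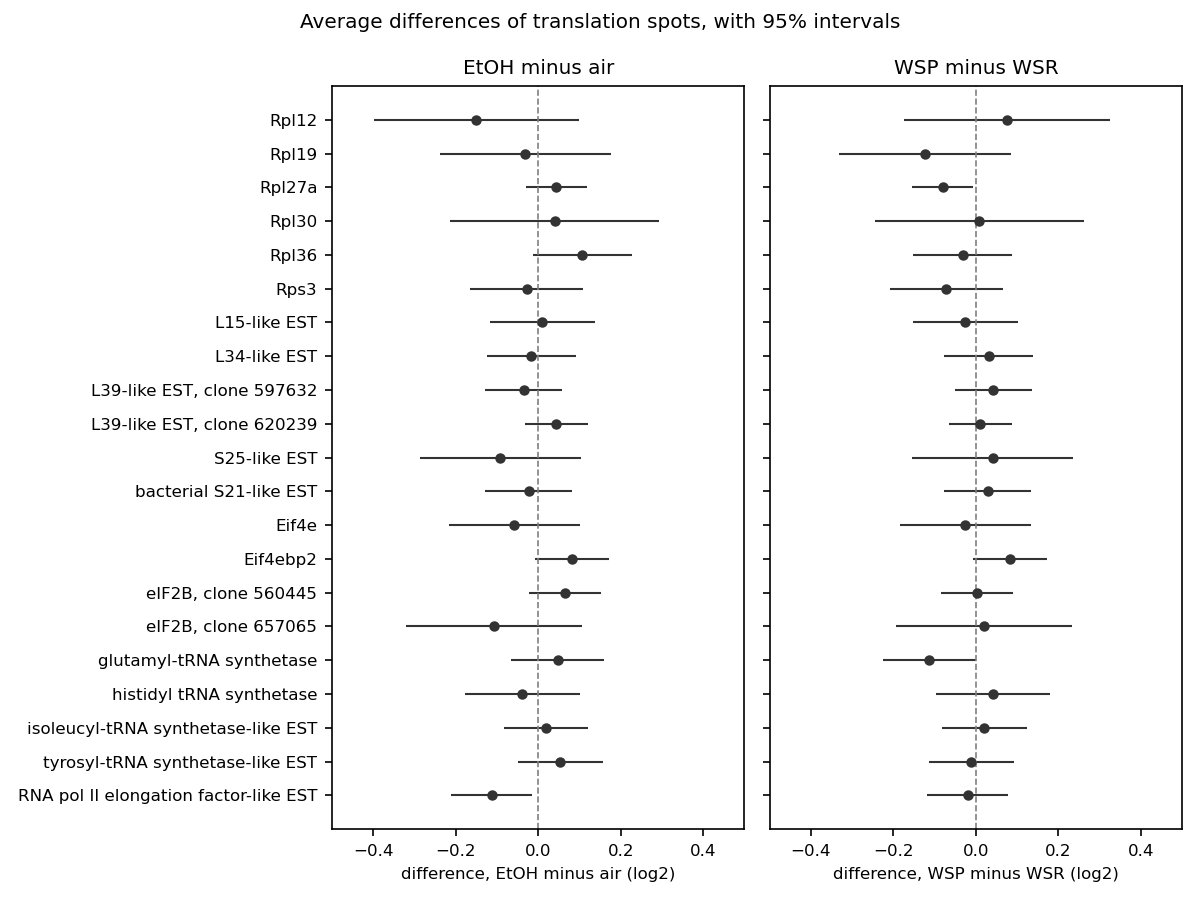
Average difference in log2 intensity (points) with 95% intervals from limma for 21 of the spots, EtOH minus air on the left and WSP minus WSR on the right, 16 arrays against 16 in each. The intervals cross 0 for all spots drawn but the RNA polymerase II elongation factor-like EST on the left and Rpl27a and the glutamyl-tRNA synthetase on the right, and none of these 3 passed the adjusted threshold.

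Among the ribosomal proteins, 4 of the 7 titled spots were higher in EtOH and 3 lower. Rpl36, a protein of the large subunit, averaged 5.9997 ± 0.19 in EtOH and 5.89 ± 0.16 in air (SD, n = 16 arrays each), which is 0.11 higher in EtOH (SE 0.06, limma adjusted p = 0.687). Rpl27a, a large-subunit protein above background on 13 arrays, differed by 0.04. Rpl12, which belongs to the base of the stalk where elongation factors dock, had the widest difference in the other direction, 5.96 ± 0.31 in EtOH and 6.11 ± 0.40 in air, or -0.15 (SE 0.12, limma adjusted p = 0.796). The values of the treatments overlapped. The Rpl12 difference was -0.08 without Female WSP Air array 1-2, 0.08 in population 2 alone and 0.02 after each value was centred on its neighbours on the array, the last 2 with the sign turned.

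The 5 ESTs similar to cytosolic ribosomal proteins split into 2 higher and 3 lower in EtOH. The S25-like EST differed by -0.09 and was above background on every array. The L39-like ESTs, named for a protein that lines the exit tunnel of the large subunit, gave -0.04 for clone 597632 and 0.04 for clone 620239. These clones share the similarity but not the UniGene cluster, and both stayed near the floor.

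Of the initiation titles, eIF2B clone 560445 averaged 10.40 ± 0.11 in EtOH and 10.33 ± 0.09 in air. The difference was 0.06 (SE 0.04, limma adjusted p = 0.744). eIF2B clone 657065 averaged 6.68 ± 0.30 in EtOH and 6.79 ± 0.31 in air, and its difference was -0.11 (SE 0.11, limma adjusted p = 0.827), or -0.06 without Male WSP EtOH array 1-2. Eif4ebp2 differed by 0.08 (SE 0.04, adjusted p = 0.687) and was above background on 4 EtOH arrays and 1 air array. The 2 eIF2B clones therefore pointed in opposite directions, and neither passed.

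The member with the smallest p for the average effect was the RNA polymerase II elongation factor-like EST, which is not part of translation. It averaged 5.81 ± 0.06 in EtOH and 5.92 ± 0.18 in air, or -0.11 between them (SE 0.05, unadjusted p = 0.026, limma adjusted p = 0.656), and was above background on 3 EtOH and 8 air arrays. Its 19 neighbours within 2 spots on the array correlated with it at a median of 0.67, and after each value was centred on such neighbours the difference was 0.08, with the sign turned.

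Across the 4 pairings of sex and line, 2 of the 22 spots had an EtOH difference of the same sign throughout, a share of 9.09% against 14.4% of all clone spots. These were eIF2B clone 560445, higher by 0.05 and 0.10 in WSP and WSR females and by 0.01 and 0.10 in WSP and WSR males, and the RNA polymerase II elongation factor-like EST, lower in each. The other 20 changed sign at least in 1 stratum.

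**Figure D3:**
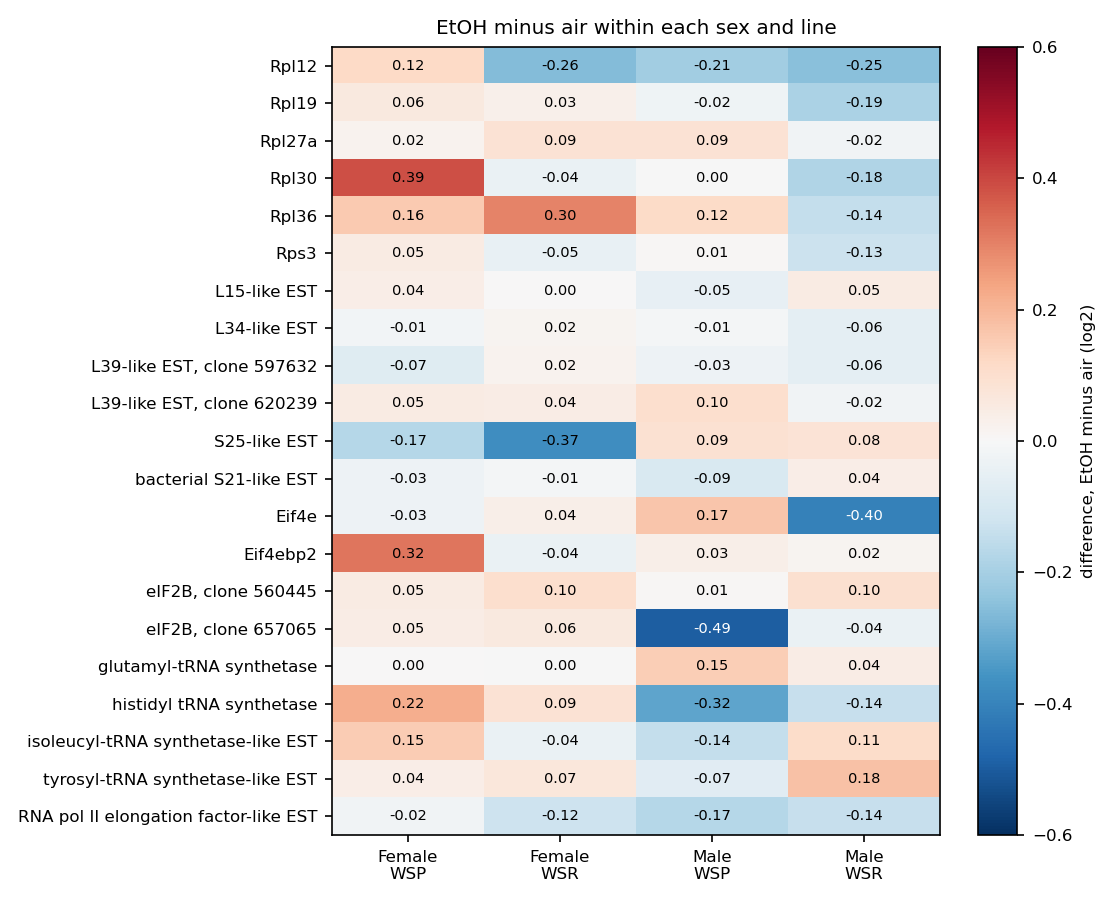
EtOH minus air in log2 units for 21 of the spots (rows) in each sex and line (columns), 4 arrays against 4, with red for higher in EtOH and blue for lower. No row passed the adjusted threshold in a column, and the darkest cells are Rpl30 in Female WSP (0.39), the S25-like EST in Female WSR (-0.37), eIF2B clone 657065 in Male WSP (-0.49) and Eif4e in Male WSR (-0.40).

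Within Female WSP the strongest member was Eif4ebp2, the 4E-binding protein that prevails in brain and restrains cap-dependent initiation. Its log2 intensities were 5.88, 6.62, 6.02 and 5.95 on the EtOH arrays, against 5.81, 5.77, 5.81 and 5.79 on the air arrays. All 4 EtOH arrays lay above all 4 air arrays, with array 1-2 far above the rest. The spot was above background on 3 EtOH arrays and on 0 air arrays. Its measured means of 6.12 ± 0.34 in EtOH and 5.80 ± 0.02 in air give a brightness at least 1.16-fold higher in EtOH. That limit allows for the dim air arrays alone and carries no sampling error. The fitted difference was 0.32 (SE 0.09, unadjusted p = 0.0011, limma adjusted p = 0.188), which did not pass. Without EtOH array 1-2 it was 0.15, and it was 0.45 in population 1 and 0.18 in population 2. Its 9 neighbours within 2 spots correlated with it at a median of 0.68, and the difference after centring on them was 0.19.

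Eif4ebp2 and Rpl36 were the 2 members whose groups did not overlap in Female WSP, where 5.47% of all clone spots did not. No spot passed there (0% of 4696), and 1 member had an unadjusted p under 0.05 (11.6% of all spots). Rpl36 had 6.03, 6.13, 5.99 and 6.09 on the EtOH arrays, against 5.88, 5.94, 5.86 and 5.92 on the air arrays. The groups were separated by a narrow gap, and the difference of 0.16 had an SE of 0.12 (limma adjusted p = 0.639). Rpl30, a large-subunit protein, had the largest difference of the stratum at 0.39 and rested on 1 array: its values were 5.82, 5.80, 7.63 and 5.74 in EtOH, against 5.83, 6.01, 5.77 and 5.82 in air. Without EtOH array 2-1 the difference was -0.07. The neighbours of Rpl30 on that array lay a median of 0.58 above their own means, against 1.65 for Rpl30 itself.

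The histidyl tRNA synthetase, which charges tRNA with histidine, had 6.40, 6.45, 6.67 and 6.60 in Female WSP EtOH, against 6.55, 6.24, 6.43 and 6.03 in Female WSP Air, a difference of 0.22 (SE 0.14, adjusted p = 0.557 in limma). The groups overlapped. Lower values in EtOH included the S25-like EST (-0.17) and L39-like EST clone 597632 (-0.07).

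In Female WSR, Rpl36 had the smallest p of the members. It had 6.11, 6.20, 5.89 and 6.44 on the EtOH arrays, against 5.87, 5.87, 5.93 and 5.78 on the air arrays, and was above background on 3 EtOH arrays and 1 air array. EtOH array 2-1 fell within the air range and the other 3 lay above it. The difference was 0.30 (SE 0.12, unadjusted p = 0.017, limma adjusted p = 1.00), and after centring on neighbouring spots it was 0.33. It was the only member with an unadjusted p under 0.05 in the stratum (3% of all spots), where 0% of spots passed, and 0 members had groups without overlap (2.49% of all spots).

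The S25-like EST, named for a small-subunit protein, had 6.27, 6.87, 6.14 and 6.23 in EtOH, against 7.05, 7.01, 6.48 and 6.46 in air. All but EtOH array 1-2 lay below the air range, and the difference was -0.37 (SE 0.19, unadjusted p = 0.061). The other members named for this stratum were eIF2B clone 560445 at 0.10, Rpl12 at -0.26 (-0.05 without Female WSR Air array 1-2) and the RNA polymerase II elongation factor-like EST at -0.12.

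In Male WSP, 2 members had an unadjusted p under 0.05 (6.15% of all spots) and 0% of spots passed. eIF2B clone 657065 had 6.86, 5.93, 6.36 and 6.94 on the EtOH arrays, against 7.36, 6.91, 6.96 and 6.86 on the air arrays. EtOH array 1-2 was the lowest value of that spot on any array, and EtOH arrays 1-1 and 2-2 fell within the air range or on its edge. The difference was -0.49 (SE 0.21, unadjusted p = 0.025, limma adjusted p = 0.751), and it was -0.30 without EtOH array 1-2. The brighter eIF2B clone 560445 had 10.46, 10.23, 10.62 and 10.31 in EtOH, against 10.45, 10.41, 10.36 and 10.38 in air, a difference of 0.01 (SE 0.09). The 2 clones of this title thus gave unlike estimates in the same RNA pools, and the gap between the clones was not tested.

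The histidyl tRNA synthetase had 5.97, 6.05, 6.44 and 6.69 in Male WSP EtOH, against 6.70, 6.48, 6.63 and 6.60 in Male WSP Air. Both arrays of population 1 were low, array 2-1 lay just under the air range and array 2-2 lay within it. The difference was -0.32 (SE 0.14, unadjusted p = 0.027, limma adjusted p = 0.751), made up of -0.58 in population 1 and -0.05 in population 2. The glutamyl-tRNA synthetase differed by 0.15, L39-like EST clone 620239 by 0.10, Rpl27a by 0.09 and the RNA polymerase II elongation factor-like EST by -0.17.

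In Male WSR, Eif4e, the cap-binding factor, had 5.78, 5.86, 5.80 and 5.75 on the EtOH arrays, against 6.15, 6.09, 6.18 and 6.38 on the air arrays. The groups did not overlap, and the spot was above background on 1 EtOH array and on all 4 air arrays. The difference was -0.40 (SE 0.16, unadjusted p = 0.014, limma adjusted p = 1.00). Eif4e was 1 member of 22 without overlap here, where 3.56% of all spots had none, and the 1 member with an unadjusted p under 0.05 (3.39% of all spots). No spot passed (0%). After centring on its 14 neighbours the difference was -0.22. In Male WSP the same gene had 5.85, 5.81, 6.28 and 6.27 in EtOH, against 6.07, 5.89, 5.81 and 5.78 in air, with the populations on opposite sides.

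The tyrosyl-tRNA synthetase-like EST was higher by 0.18 in Male WSR EtOH (above background on 3 EtOH and 0 air arrays, at least 1.05-fold), the isoleucyl-tRNA synthetase-like EST by 0.11 and eIF2B clone 560445 by 0.10. The RNA polymerase II elongation factor-like EST differed by -0.14. None passed.

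**Figure D4:**
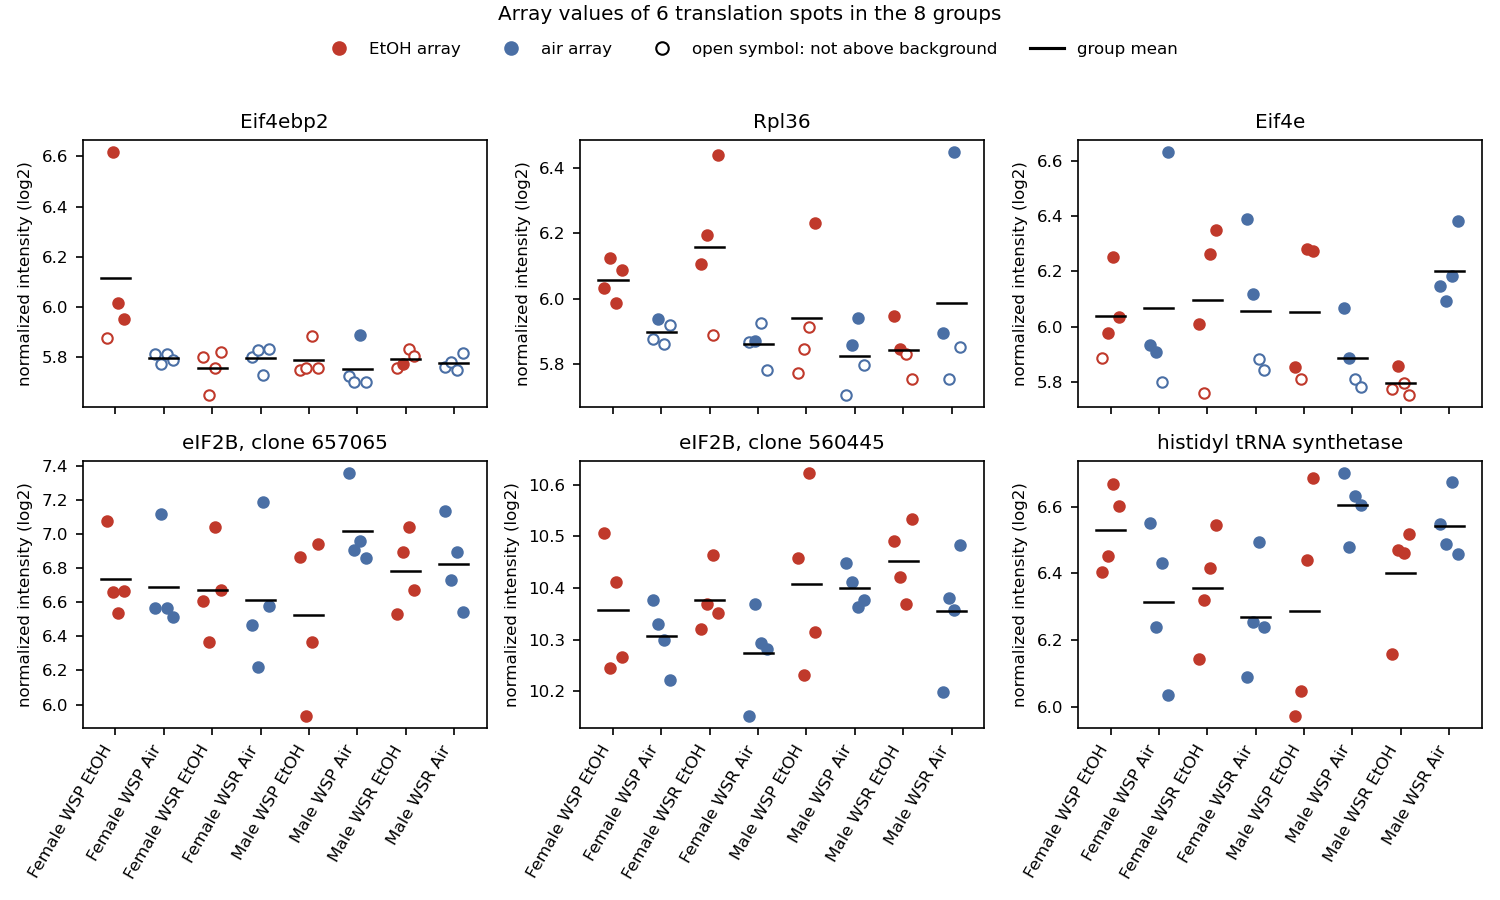
Log2 intensity of 6 translation spots on each array (points) in the 8 groups, EtOH in red to the left of air in blue, with group means as lines and open symbols for arrays on which the spot was not above background. Eif4ebp2 stands out in Female WSP EtOH with a mean of 6.12, and Eif4e is low in Male WSR EtOH. In Male WSP the EtOH mean of eIF2B clone 657065 lies below its air mean, while the 2 means of clone 560445 lie close together.

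The difference between lines in their response was tested as an interaction. The higher ethanol dose in population 2 of WSP is part of that difference and cannot be told apart from line. Eif4ebp2 had an EtOH difference of 0.18 in WSP and -0.01 in WSR, and the gap of 0.19 had an SE of 0.09 (unadjusted p = 0.040, limma adjusted p = 0.999). Without Female WSP EtOH array 1-2 the EtOH difference in WSP was 0.09 and the gap 0.11. It was the only member with an unadjusted p under 0.05 (2.09% of all spots), and 0% of spots passed. Eif4e followed with 0.25 and Rpl30 with 0.30, which was 0.07 without Female WSP EtOH array 2-1. On the other side were eIF2B clone 657065 with -0.23, which was -0.13 without Male WSP EtOH array 1-2, the tyrosyl-tRNA synthetase-like EST with -0.13 and eIF2B clone 560445 with -0.07. With both sexes pooled, 1 member had an unadjusted p under 0.05 in WSP (7.67% of all spots) and 0 in WSR (1.72%), and 0% of spots passed in either line. The member in WSP was Eif4ebp2, whose treatments overlapped there, and 0.0426% of all spots did not overlap.

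The response of the sexes was set side by side in the same way. The EtOH difference was higher in females than in males for 19 of the 22 spots, with a median gap of 0.07, against 49.2% of all clone spots and a median of -0.0020. All 7 titled ribosomal proteins were among the 19. The same 7 also shared a sign in other comparisons. All had a higher EtOH difference in WSP than in WSR, and all were lower in EtOH in Male WSR. All were lower in WSP than in WSR in air, and in Male Air alone. Each of these comparisons uses the Male WSR Air arrays. Rpl19, Rpl30, Rps3 and Rpl27a also share a printed grid, so the 7 are not independent. These other comparisons were picked out after their signs were seen. The 5 ESTs similar to cytosolic ribosomal proteins did not share a sign in them. Of these ESTs 3 had a higher EtOH difference in WSP than in WSR, and 2 were higher in EtOH in Male WSR. In air 2 were higher in WSP, as were 2 in Male Air alone. The shares of all clone spots that were higher were 51.5%, 52.8%, 50.6% and 52.3%, in the same order. Between the sexes no member passed (0% of spots, smallest adjusted p of a member 0.750 in limma), and 2 had an unadjusted p under 0.05 (6.13% of all spots). These 2, named after their values were seen, were the histidyl tRNA synthetase, with a gap of 0.38 (SE 0.14, limma unadjusted p = 0.0091), and Rpl36, with 0.24 (SE 0.12, limma unadjusted p = 0.048). The count was 16 of 22 with median scaling, with cyclic loess and after centring on neighbouring spots, and the median gap in that last setting was 0.02. Background level and the share of spots above background differed between the sexes, as given above, and their part in this count was not tested.

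The second question is whether the lines differ. A line difference rests on 2 populations in each line, whatever the number of arrays. The p-values treat pools, and not populations, as replicates. Averaged over sexes and treatments, 12 of the 22 spots were higher and 10 lower in WSP than in WSR, with a median difference of 0.01 against 0.00 over all spots. No member passed in limma (smallest adjusted p = 0.642), while 30 of all 4696 spots did (0.639%). At an unadjusted p under 0.05 there were 2 members (9.09%, against 7.18% of all spots).

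Rpl27a averaged 5.82 ± 0.11 in WSP and 5.90 ± 0.09 in WSR (SD, n = 16 arrays each), a difference of -0.08 (SE 0.04, unadjusted p = 0.036, limma adjusted p = 0.642). It was above background on 3 WSP and 10 WSR arrays, and the difference after centring on neighbours was -0.05. The glutamyl-tRNA synthetase, which charges tRNA with glutamate, averaged 5.95 ± 0.22 in WSP and 6.07 ± 0.10 in WSR, a difference of -0.11 (SE 0.06, unadjusted p = 0.049, adjusted p = 0.687), and was above background on 9 WSP and 15 WSR arrays. Both ranges overlapped between the lines.

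The remaining named members included Rpl19 at -0.12 and Rps3, which sits at the entry of the message into the small subunit, at -0.07. In the other direction were Eif4ebp2 at 0.08, Rpl12 at 0.08, L39-like EST clone 597632 at 0.04, the histidyl tRNA synthetase at 0.04 and the L34-like EST at 0.03. The L34-like EST alone kept a line difference of the same sign in all 4 pairings of sex and treatment, 1 of 22 spots against 13.7% of all. After centring on neighbours its average was -0.02.

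The line difference was also read within each treatment. In EtOH, population 2 of WSP had received the higher ethanol dose, so line and dose cannot be told apart there. In EtOH, Eif4ebp2 was higher in WSP by 0.18 (SE 0.06, unadjusted p = 0.0082, limma adjusted p = 0.792). That difference came from females, where the EtOH arrays were 5.88, 6.62, 6.02 and 5.95 in WSP, against 5.80, 5.65, 5.76 and 5.82 in WSR. The 4 WSP arrays lay above the 4 WSR arrays, and the spot was above background on 3 WSP arrays and 0 WSR arrays. The difference was 0.36 (SE 0.09, unadjusted p = 0.00034, adjusted p = 0.175), or at least 1.18-fold higher in WSP, and it did not pass, while 1 of all spots did in that comparison (0.0213%). Without Female WSP EtOH array 1-1, the lowest of the 4, it did pass (limma adjusted p = 0.0352). Without array 1-2, the highest of the 4, the difference in Female EtOH was 0.19 and that in both sexes together was 0.09. Of the 22 members 2 had an unadjusted p under 0.05 there (8.56% of all spots), Eif4ebp2 among them.

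Rpl27a was the other member without overlap between the lines in Female EtOH, where 5.03% of all spots had none. Its WSP arrays averaged 5.79 with 0 above background and its WSR arrays averaged 5.93, so it was at least 1.03-fold brighter in WSR. It did not pass (limma unadjusted p = 0.061, adjusted p = 0.616) and was not among the members with an unadjusted p under 0.05 there. In both sexes together the other named differences in EtOH were 0.18 for Rpl12 (0.06 without Female WSP EtOH array 2-2), 0.16 for Rpl30 (-0.07 without Female WSP EtOH array 2-1), -0.07 for Rpl27a, -0.09 for the glutamyl-tRNA synthetase and -0.08 for the tyrosyl-tRNA synthetase-like EST. Of the 22, 1 had an unadjusted p under 0.05 (4.94% of all spots), and 0% of spots passed.

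In air, 0 members had an unadjusted p under 0.05 (5.37% of all spots) and 0% of spots passed in limma. The glutamyl-tRNA synthetase differed by -0.14, Rpl27a by -0.09 and Eif4e by -0.15, while L39-like EST clone 597632 gave 0.06, eIF2B clone 657065 gave 0.14 and the S21-like EST gave 0.07. In Male Air 2 members did not overlap, where 2.77% of all spots did not: Eif4e, lower in WSP by 0.31, and the tyrosyl-tRNA synthetase-like EST, higher in WSP by 0.20 and at least 1.07-fold brighter there. The Eif4e arrays were 6.07, 5.89, 5.81 and 5.78 in Male WSP Air, against 6.15, 6.09, 6.18 and 6.38 in Male WSR Air. The Male WSR Air arrays of Eif4e are the same 4 that stood above the Male WSR EtOH arrays, so these comparisons share them. In Male Air 0 members had an unadjusted p under 0.05 (2.07% of all spots). In Female Air 0 members passed and 4 of all spots did (0.0852%), and in Male EtOH 0 members and 0% of all spots did, with 0 members at an unadjusted p under 0.05 in Female Air (10.4% of all spots) or in Male EtOH (5.81%).

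The sexes were compared last. No member passed, against 42 of all spots (0.894%). In the authors' deposited values 2 members did, the S25-like EST and eIF2B clone 560445 (limma, smallest adjusted p = 0.000979). Those values cover 6 of the 22 members among 2170 probes, and their centring is unknown. The share of those probes that passed is not given here, so the 2 calls cannot be set against it. The glutamyl-tRNA synthetase, named after its values were seen, averaged 5.92 ± 0.12 in females and 6.10 ± 0.18 in males, a difference of -0.17 (SE 0.06, unadjusted p = 0.0037, limma adjusted p = 0.173), and it was above background on 9 female and 15 male arrays. It was the only member with an unadjusted p under 0.05 (8.77% of all spots).

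The 22 spots did not vary together as a set. Deviations from group means over the 32 arrays correlated at a median of 0.02 over the 231 pairs of members and at -0.01 over all pairs of clone spots. Of the 231 pairs, 3 passed for both Pearson's and Spearman's coefficient after Benjamini-Hochberg adjustment of a permutation test with 100000 draws, and 1 further pair passed for Spearman's alone. Rpl19 and Rps3 correlated at 0.80 (Spearman 0.77, adjusted p = 0.00346 for each), Rpl30 and Rps3 at 0.66 (Spearman 0.75, adjusted p = 0.00385 and 0.0115), and Rpl19 and Rpl30 at 0.66 (Spearman 0.80, adjusted p = 0.00231 for each). Without the 2 arrays farthest from the median on the Rpl19 axis, the Rpl19 and Rps3 value was 0.81, and it was 0.78 in population 1 and 0.74 in population 2.

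These 3 ribosomal proteins are spotted close together in the same printed grid. Their neighbours within 2 spots, 17 for Rpl19, 22 for Rpl30 and 21 for Rps3, whatever their titles, correlated with them at medians of 0.68, 0.70 and 0.64, while spots of other grids did so at -0.05, -0.04 and -0.05. After centring on neighbours, the Rpl19 and Rps3 correlation was -0.02, that of Rpl19 and Rpl30 was 0.16, and that of Rpl30 and Rps3, which lie side by side, was -0.65. The last value leans on Female WSP EtOH array 2-1, on which Rpl30 stood far above the rest. There the centred deviations were 0.82 for Rpl30 and -0.48 for Rps3, the largest of either spot. The correlation without that array is not given here. The correlation with near neighbours was seen beyond these 3. It ran from 0.09 for eIF2B clone 560445, the only one of the 22 far above background, to 0.72 for L39-like EST clone 597632.

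The pair that passed for Spearman's coefficient alone was the L34-like and S25-like ESTs, named for a large-subunit and a small-subunit protein and spotted in different grids. They correlated at 0.60 (adjusted p = 0.0589, Spearman 0.61, adjusted p = 0.0468, permutation test over 32 arrays). The value was 0.60 without the 2 farthest arrays, 0.74 in population 1 and 0.39 in population 2. After centring on neighbours it was 0.75, higher than as normalized, while each of the other 3 pairs lost its positive value or fell to 0.16.

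**Figure D5:**
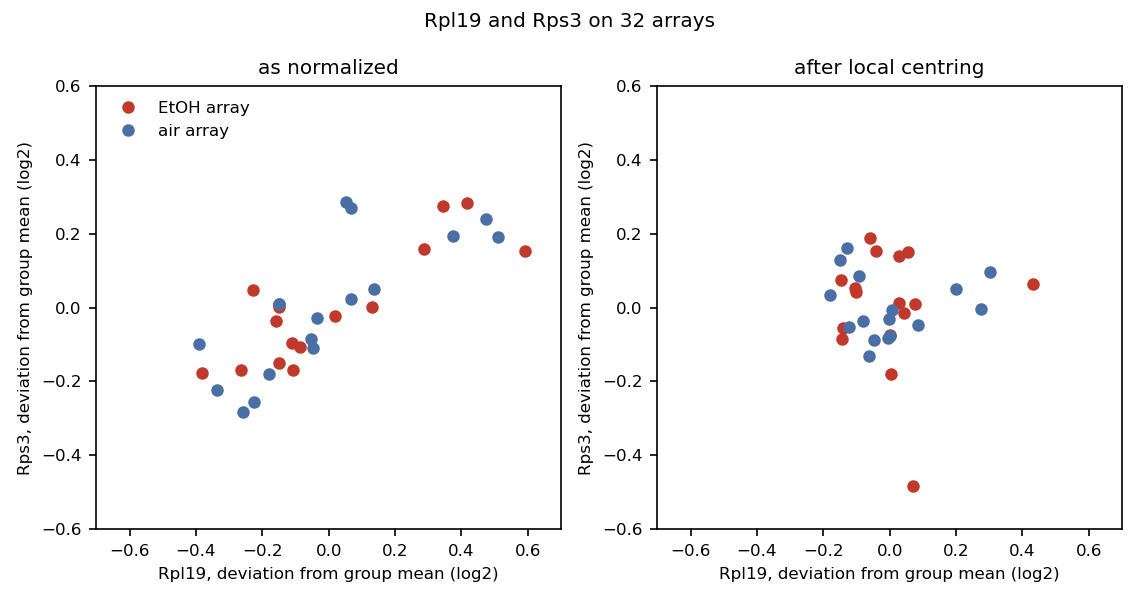
Deviation of Rps3 from its group mean against that of Rpl19 on 32 arrays, in log2 units, EtOH arrays in red and air arrays in blue, as normalized on the left and after centring on neighbouring spots on the right. The correlation is 0.80 on the left and -0.02 on the right.

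Beyond the 22, 18 clone spots carry other titles that match words of the pathway. With EtOH 9 were higher and 9 lower, and 0 passed in limma (smallest adjusted p = 0.656). Before adjustment 3 of the 18 were under 0.05, against 7.52% of all clone spots. These 3 were the tRNA-guanine transglycosylase Tgt, which modifies tRNA, at 0.25, an EST moderately similar to a probable mitochondrial leucyl-tRNA synthetase at 0.10 (above background on 7 arrays), and an EST weakly similar to the polymerase I transcript release factor at 0.14. The last title names a factor of transcription and entered by the words release factor. Spots for kinases that act on initiation gave -0.11 for eIF2 alpha kinase 3 and -0.19 for eIF2 alpha kinase 4, with kinase 4 above background on 4 arrays only. The S6 kinase spots gave -0.04 for the polypeptide 1 and 0.02 for the 90kD polypeptide 2. Nucleophosmin 1, a nucleolar protein of ribosome assembly, gave -0.07, eIF3 p66 gave 0.15, the Y-linked eIF2 subunit 3 gave 0.11, and an EST similar to a translational initiation factor 2 gave -0.08. The mitochondrial ribosomal spots gave 0.01 for S7, 0.01 for L14 and -0.01 for an EST of the 60S type, and an EST similar to mitochondrial arginyl-tRNA synthetase gave -0.14. The remaining ESTs gave 0.09 for the p120-like, -0.04 for the Nopp140-like and -0.02 for the tRNA-like title. Between lines 9 were higher and 9 lower in WSP, with 0 passing (smallest adjusted p = 0.770) and 0 at an unadjusted p under 0.05 (7.18% of all clone spots).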

How the data were processed

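Each deposited array file holds a spot intensity and 1 background intensity per array, from which the authors had subtracted nothing, per the file headers. Per the labels' protocols, RNA of 2 mice (2.5 µg each) was pooled for each 33P probe. Neither imager nor spot finder is named in those sources. The authors' deposited log2 value table, blank below background (10.9% to 47.3% of values), kept the rank order of each array's signal (rank correlation 1), with column medians from 7.37 to 8.63. Its direction is that of the signal, and its centring and scaling stay unknown, so it served as an alternative.

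Signals were corrected with normexp (offset 50) over 5355 spots. Genomic DNA spots (192) and unidentified spots (467) were dropped, and 4696 clone spots were quantile normalized. limma 3.58.1 in R 4.3.3 fitted 8 group means over 32 arrays (lmFit, eBayes with a trend), 2-sided, with Benjamini-Hochberg adjustment over all 4696 spots at 0.05 in each of 17 comparisons. The fit was tested on simulated data. Populations were pooled within a group, following the design text, and p-values measure the spread between pools. For a spot that never exceeded background in a group, the fold is a lower limit, set on each dim array by the spot itself or by the lowest detected signal, whichever was higher. The mean of the brighter group is taken as measured, so the limit carries no sampling error. Correlations used a permutation test of deviations from group means. Plots were drawn with matplotlib 3.10.9 in Python 3.11.15.

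The members, the lists, the rule for named members and the tests were chosen with earlier results of these data known. By that rule, the text names the members with the 5 smallest p in each direction for the average EtOH and line differences and the 3 smallest in each direction for 4 EtOH strata, the EtOH by line interaction and the line difference in each treatment. It also names the 8 members with the highest mean, those of the same sign in all strata, and clones of the same title. Centring on neighbouring spots was added after seeing the data: it subtracts the median deviation of the clone spots within 2 columns and rows of the same grid on that array.

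Air and EtOH arrays with the same number come from the same selected population, per the labels, which pairs them by population. Their deviations from group means correlated at -0.08 and 0.21 in WSP and WSR females and at -0.02 and -0.0030 in WSP and WSR males. Of the members, 1 enters the counts and medians but is not reported by name or drawn here.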

Additional observations from a re-analysis of the deposited data

Results flagged for a closer look

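In 19 of 176 groups of 4 arrays (10.8%) the highest or lowest array stood apart from the other 3 beyond Dixon's limit, where chance flags about 1 in 20 groups. They involved 13 of the 22 spots, 15 of them with a high array and 4 with a low one. In 18 of the 19 the clone spots within 2 positions deviated to the same side on that array. The largest gap was in Rpl30, 7.63 on array 2-1 of Female WSP EtOH against 5.82 for the next, with neighbours 0.58 above their means. Other high arrays in Female WSP were 6.36 for Rpl19 on EtOH array 2-1, 6.94 for Rpl12, 7.12 for eIF2B clone 657065 and 6.26 for L39-like EST clone 597632 on air array 1-2, 6.63 for Eif4e on air array 2-2, and 6.65 for the L15-like EST and 6.07 for the bacterial S21-like EST on air array 1-1. eIF2B clone 657065 was the exception, with neighbours at -0.02. In the remaining groups the high arrays were 6.02 for Rpl27a in Female WSR EtOH, 6.14 for Rpl27a and 5.89 for Eif4ebp2 in Male WSP EtOH, 5.89 for Eif4ebp2 in Male WSP Air, 6.33 for Rpl19 and 6.54 for the L15-like EST in Male WSR EtOH, and 6.33 for the RNA polymerase II elongation factor-like EST in Male WSR Air. The low arrays were 5.69 for Rpl27a in Female WSP EtOH, 6.03 for the L15-like EST in Female WSR EtOH, 6.16 for the histidyl tRNA synthetase in Male WSR EtOH and 5.79 for the L34-like EST in Female WSR Air.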

How the results depend on the processing

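Under 12 alternatives and the leaving out of each of 32 arrays, 0 of 22 members passed in 15 of the 17 comparisons. The authors' deposited values, which cover 6 of the 22 members among 2170 probes, called 2 members between the sexes (the S25-like EST and eIF2B clone 560445). The share of all those probes called is not given here. Leaving out Female WSP EtOH array 1-1 called 1 member between the lines in Female EtOH (Eif4ebp2, count range 0 to 1). With the population as a replicate block, 0 members passed in every comparison. No member passed without the block either, so it had no call to remove. Of 62 named differences, 42 kept their sign throughout. Signs turned after centring on neighbours for the average EtOH effect of the RNA polymerase II elongation factor-like EST (0.0779, and 0.123 in Female WSR, 0.131 in Male WSP and 0.145 in Male WSR), Rpl12 (0.0176, and 0.0487 in Female WSR) and L39-like EST clone 597632 (0.00406, and 0.0300 in Female WSP), the S25-like EST in Female WSP (0.0551) and the line difference of the L34-like EST (-0.0240). The authors' values turned eIF2B clone 560445 in Female WSR (-0.0318) and in the EtOH by line interaction (0.0450). Population 1 alone turned Rpl30 in Female WSP (-0.114) and its line difference in EtOH (-0.0926), and the isoleucyl-tRNA synthetase-like EST in Male WSR (-0.0253). Population 2 alone turned the average EtOH effect of L39-like EST clone 620239 (-0.0246) and Rpl12 (0.0797), the average line difference of L39-like EST clone 597632 (-0.00568), Rpl19 (0.0183) and Rps3 (0.00983), the line difference in air of eIF2B clone 657065 (-0.0764) and the interaction of eIF2B clone 560445 (0.0133). Leaving out 1 array gave -0.0745 to 0.557 for Rpl30 in Female WSP and -0.0708 to 0.245 for its line difference in EtOH, both lowest without Female WSP EtOH array 2-1, and -0.139 to 0.0394 for L39-like EST clone 597632 in Female WSP, highest without Female WSP Air array 1-2. The cause of these turns was not tested. Low signal over background limits the dim spots: a smaller offset of 16 gave 0.659 for Eif4ebp2 in Female WSP, and 17 of the 22 spots were below background on some array.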
